A study of Mus musculus with 12 samples.

Results

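The regions described here are the c-Fos peaks of mouse CA1 excitatory neurons that lie in gene deserts, far from any protein-coding gene. A peak was a member when its midpoint lay outside all protein-coding genes and more than 100 kb from the nearest end of one, on chromosomes 1 to 19 and X of the mm10 build. Of 3295 peaks in the list, 3294 lay on these chromosomes and 637 (19.3%, exact binomial 95% interval 18.0 to 20.7) met the rule. Of the others, 1718 lay inside protein-coding genes and 939 lay outside them but within 100 kb of an end.

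The peaks come from CUT&RUN, where a nuclease tethered to an antibody cuts out the bound DNA, on nuclei of the hippocampal CA1 field. There were 4 groups of 3 replicates: c-Fos antibody after kainic acid, IgG after kainic acid, c-Fos antibody after phosphate buffered saline (PBS), and IgG after PBS. All 12 samples came from C57BL/6 mice aged 3 to 4 weeks with the genotype CaMK2a-Cre/+; LSL-Sun1-GFP/+, and tissue was taken 2 to 3 h after injection. The CaMK2a promoter drives Cre in excitatory neurons, and Cre switches on a green fluorescent protein in the nuclear envelope, by which 50000 nuclei per reaction were sorted. The single list analysed here is named as replicated c-Fos peaks over IgG after kainic acid. It gives positions only, so no peak height, no depth and no value per replicate stands behind the numbers below, and the sorted cell type could not be checked against marker genes. Peaks after PBS were not analysed here.

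c-Fos is a subunit of AP-1, a dimeric transcription factor that neurons build within hours of strong firing, such as the seizures that kainic acid, a glutamate receptor agonist, brings about. AP-1 binds the sequence TGAGTCA, or TGACTCA on the opposite strand, and in neurons much of its binding is known to lie in enhancers away from promoters. Gene deserts are long stretches between protein-coding genes. Many border genes for transcription factors, receptors and adhesion proteins, and some hold enhancers that act over long distances.

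No genome sequence was at hand, so the letters under most desert peaks were not read. The exceptions were starts of genes of other types that lay under desert peaks. Desert peaks overlapped 13 promoter windows of 10 genes, all long non-coding RNA (lncRNA) genes, each window running from 250 bases before to 50 after a transcript start in RefSeq (GRCm38.p6, the assembly of mm10). In these windows TGAGTCA or TGACTCA was found in 2 of 13, in 50 of 325 windows under other peaks (15.4% in both sets), in 719 of 11589 windows of genes that are not protein-coding (6.20%), and in 1709 of all 32851 windows in the table. The 13 windows are not 13 separate starts, since a pair of Gm32753 windows lay 3 bp apart, with 14 and 17 bases under the peak. The interval for the 13 windows runs from 1.92 to 45.4%. The motif was searched on both strands, and no other motif is reported. Both matching windows are printed first, with the match in capitals, followed by a window without a match whose transcript start lay closest to the middle of its peak.
Gm33624, chr10:119001146-119001445, minus strand: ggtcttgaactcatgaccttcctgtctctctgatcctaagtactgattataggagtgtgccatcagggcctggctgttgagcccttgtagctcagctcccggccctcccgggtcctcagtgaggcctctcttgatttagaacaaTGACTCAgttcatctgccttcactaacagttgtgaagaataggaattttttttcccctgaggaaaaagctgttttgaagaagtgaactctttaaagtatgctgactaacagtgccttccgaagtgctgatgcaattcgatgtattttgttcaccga
Gm33045, chr13:110627722-110628021, plus strand: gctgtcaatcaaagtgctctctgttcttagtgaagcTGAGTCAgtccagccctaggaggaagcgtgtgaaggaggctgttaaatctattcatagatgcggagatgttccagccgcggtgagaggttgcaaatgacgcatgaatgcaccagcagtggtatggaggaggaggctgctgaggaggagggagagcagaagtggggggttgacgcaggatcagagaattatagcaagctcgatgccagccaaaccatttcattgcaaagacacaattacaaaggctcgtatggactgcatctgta
Gm34466, chr13:45267723-45268022, minus strand: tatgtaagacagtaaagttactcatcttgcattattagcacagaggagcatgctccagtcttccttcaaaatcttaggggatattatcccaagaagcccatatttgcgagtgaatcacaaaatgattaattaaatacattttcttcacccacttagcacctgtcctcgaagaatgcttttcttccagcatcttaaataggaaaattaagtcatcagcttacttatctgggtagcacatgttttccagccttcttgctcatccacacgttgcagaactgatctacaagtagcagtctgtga
In Gm33624 the match began 106 bases before the transcript start and lay 433 bp from the middle of a 1064 bp peak between Dyrk2 and Cand1. In Gm33045 it began 214 bases before a start, 549 bp from the middle of a 3557 bp peak, which is among the 10 widest in deserts. That peak covered a pair of Gm33045 starts, and the other start lay 33 bp from its middle. The start of Gm34466, between Dtnbp1 and Mylip, lay 31 bp from the middle of a 1711 bp peak. A match is a string of letters and not a measured site of binding.

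Of 1072 microRNA genes in the reference, 5 lay within 20 kb of a desert peak, a distance chosen after the positions were seen. How many lie in deserts or near other peaks was not counted, so the 5 are a description of position only. On chromosome 16, between Usp25 and Cxadr, a peak of 1215 bp (77602293 to 77603507) lay 2.54 kb beyond the let-7c-1 hairpin and 3.29 kb beyond the miR-99a hairpin, which neighbour each other. On chromosome 3 a peak of 1782 bp lay 1.07 kb from the miR-466k hairpin. Mature strands are shown with the seed, bases 2 to 8, in capitals, since the seed selects the target messages. For let-7c-1 and miR-99a only the 5p strand is printed, and their 3p strands, with other seeds, are left out.
let-7c-5p: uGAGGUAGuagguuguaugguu
miR-99a-5p: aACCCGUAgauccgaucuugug
miR-466k: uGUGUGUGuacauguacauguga
These 3 seeds differ from one another. The remaining pair, miR-1952 and miR-6411, had a peak 5.97 and 11.5 kb from the hairpin.

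The first question was how densely deserts are occupied for their size. Desert peaks were sparser than peaks elsewhere, yet 19.3% of the list lay in them. The desert sequence, summed over 1529 stretches called desert cores here, came to 713 Mb, or 27.7% of the span examined. It held 0.894 peaks per Mb (exact Poisson 95% interval 0.826 to 0.966). Outside genes within 100 kb of an end there were 1.13 per Mb (1.06 to 1.21), and inside protein-coding genes 1.67 (1.59 to 1.75). These intervals cover counting error only and treat neighbouring peaks as independent. Assembly gaps could not be removed from the room counted, and position relative to genes defined the classes, so no test was made.

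Within deserts the density thinned out with depth. Between 100 and 150 kb from a gene end there were 157 peaks, or 1.24 per Mb (1.06 to 1.45). The density was 1.05 per Mb (0.880 to 1.24) at 200 to 300 kb and 0.625 (0.504 to 0.767) at 500 to 1000 kb. Beyond 1000 kb, 24 peaks were left, or 0.353 per Mb (0.226 to 0.526). On the autosomes without the 3 fullest deserts, an alternative added with the data in view, the shallowest and the deepest zone had 1.35 and 0.365 peaks per Mb. The median desert peak was 233 kb from a gene end (quartiles 151 and 403 kb). The members nearest the threshold lay at 100.1 and 100.7 kb, and the nearest peaks left out at 99.9 and 99.4 kb.

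**Figure D1:**
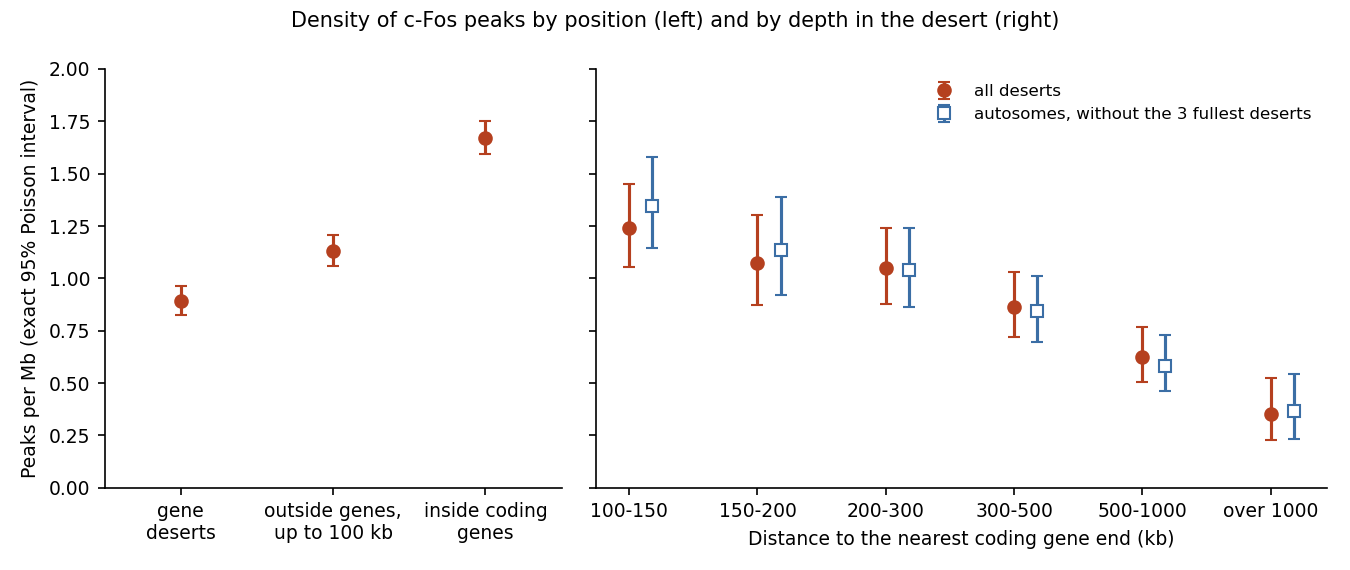
Peaks per Mb with exact 95% Poisson intervals, by position relative to protein-coding genes (left) and by distance to the nearest gene end within deserts (right, in kb). Density inside deserts goes from 1.24 per Mb in the shallowest zone to 0.353 in the deepest, and open squares show autosomes without the 3 fullest deserts.

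The 10 deepest peaks lay in 8 deserts. The deepest lay on chromosome 18 (28055051 to 28056250), 2210 kb from Pik3c3, a phosphoinositide kinase gene of vesicle traffic, and 2301 kb from Celf4, which encodes a neuronal RNA-binding protein. A pair of further peaks in the same desert lay 1414 and 1380 kb from Pik3c3, inside the lncRNA gene 4930474G06Rik. Others lay 1625 kb from Tenm2, a synaptic teneurin gene, with Mat2b on the far side, and 1609 kb from Slc39a10, a zinc transporter gene opposite Tmeff2. Next came a peak 1560 kb from Stim2, a calcium sensor gene of the endoplasmic reticulum, opposite the protocadherin gene Pcdh7. One lay 1530 kb from Dsel, opposite the adhesion gene Cntnap5a, and one 1458 kb from Got2, opposite the cadherin gene Cdh8. The list ended with a peak 1400 kb from Nmbr, opposite the transcriptional cofactor gene Cited2, and one 1377 kb from Efnb2, an ephrin gene, opposite Slc10a2. All 10 were between 931 and 1828 bp wide.

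Peaks were spread unevenly over the deserts. Of 1529 cores, 336 (21.98%, interval 19.9 to 24.1) held a peak. A single peak was found in 200 cores, 2 in 63, 3 in 43, 4 in 10, and 5 or more in 20. Those 20 cores together held 142 peaks (22.3% of all desert peaks). Longer cores held a peak more often, in 4.99% of cores up to 100 kb long and in 54.7% of those over 2000 kb. Per Mb the longest cores were the sparsest, with 1.27 peaks per Mb (0.843 to 1.83) in cores up to 100 kb, 1.08 (0.949 to 1.21) at 300 to 1000 kb and 0.462 (0.368 to 0.571) over 2000 kb.

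**Figure D2:**
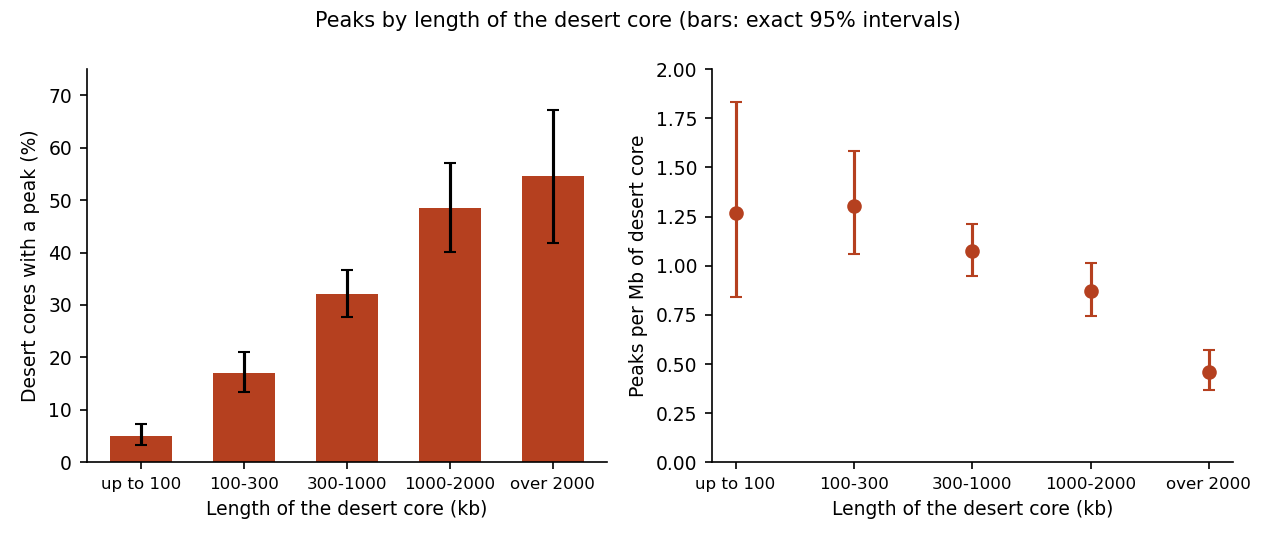
Share of desert cores with at least 1 peak (left, bars with exact 95% binomial intervals) and peaks per Mb of core (right, exact 95% Poisson intervals), by length of the core in kb. The share goes from 4.99% to 54.7% and the density from 1.27 to 0.462 peaks per Mb between the shortest and the longest cores.

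Some of the longest deserts held none at all. Of 204 cores over 1 Mb long, 101 had no peak, and of 23 over 3 Mb, 7 had none. The longest empty core, of 4.08 Mb on chromosome 1, lay between Cntnap5b and the cadherin gene Cdh20. Empty cores of 3.79 and 3.73 Mb lay between the teneurin gene Tenm3 and Aga, and between Lrrc4c, which encodes a postsynaptic adhesion protein, and Iftap. Then came empty cores of 3.48 Mb between Pcdh7 and G6pd2 and of 3.38 Mb between D3Ertd751e and Pcdh10. The next, of 3.35 Mb, separated the cadherin genes Cdh6 and Cdh9. A count of 0 here means no listed peak, since weaker binding below the submitters' threshold would not appear.

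The fullest deserts lay between Ccer1 and the calcium pump gene Atp2b1, and between the ion channel gene Kcna4 and Mettl15. Next were those between the activity-induced kinase gene Plk2 and Actbl2, and between Gask1b and the AMPA receptor gene Gria2. Together the 10 fullest cores made up 1.29% of desert sequence and held 90 peaks, 14.1% of all in deserts. They were chosen by peak number, so a high share of peaks in them follows by construction. They are described in order of peak number, and of 7 cores with 6 peaks the 5 shortest were taken.

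The desert between Ccer1 and Atp2b1 on chromosome 10 held 20 peaks in a core of 1020 kb (97794927 to 98814629). Atp2b1 encodes a plasma membrane pump that clears calcium from the cell. A first pair of peaks lay 246 and 250 kb from Ccer1. After 264 kb without a peak, a trio lay within 4.72 kb, 513 to 518 kb from Ccer1, with another at 540 kb. The other 14 peaks all lay nearer to Atp2b1, from 490 to 108 kb before it. The last of these, 1000 bp wide, covered the start of the lncRNA gene Gm40750, 180 bp from the middle of the peak. Of the 20 peaks, 13 had another within 10 kb, and widths ran from 736 to 2345 bp.

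Between Kcna4, which encodes a fast-inactivating potassium channel, and Mettl15 on chromosome 2, 14 peaks lay in a core of 1565 kb. Of these, 11 were nearer to Kcna4, at 193 to 771 kb, and 3 nearer to Mettl15. A trio within 10.2 kb, at 696, 704 and 706 kb from Kcna4, included a peak of 2393 bp. The only other peak over 2 kb wide here had 2852 bp and lay 245 kb from Mettl15.

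The desert between Plk2 and Actbl2 on chromosome 13 held 10 peaks in 654 kb, the widest set among the 3 fullest deserts, with a median of 2213 bp. Plk2 is a kinase gene switched on by neuronal activity that acts on synapse strength. The nearest peak to Plk2 lay 226 kb from it and was the 3557 bp peak over the Gm33045 starts. It was followed by peaks at 233, 341, 398 and 441 kb. A peak of 3220 bp at 482 kb had its middle 6 bp from an end of the lncRNA gene 4930526H09Rik. The last 4 lay 542 to 590 kb from Plk2, and the nearest to Actbl2 was 264 kb from that gene. Of the 10 peaks, 6 lay nearer to Actbl2 than to Plk2.

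Between Gask1b and Gria2 on chromosome 3, 9 peaks lay in 535 kb. Gria2 encodes the AMPA receptor subunit that makes the receptor impermeable to calcium. A trio within 12.2 kb was the closest to Gria2, at 135, 140 and 147 kb, and its widest peak had 2382 bp. The other 6 lay nearer to Gask1b, at 138 to 362 kb, and the first 4 of them formed 2 pairs with 9.30 and 6.52 kb between midpoints.

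The remaining full deserts differed in how tightly peaks were packed. Celf2, an RNA-binding protein gene, and Gata3, a developmental transcription factor gene, bounded a core of 2261 kb with 7 peaks, 6 of them nearer to Celf2. Beside Spry2, which encodes a feedback inhibitor of growth factor signalling, all 6 peaks lay in 2 trios, at 216 to 227 kb and at 160 to 173 kb from the gene. These 6 were between 1477 and 2776 bp wide, and Ndfip2 bordered the desert on the other side. Beside Enc1, which encodes an actin-binding protein of neurons, 6 peaks lay as 3 pairs, at 131 and 137, at 233 and 240, and at 293 and 298 kb, with Arhgef28 opposite. Between Fbxw7, a ubiquitin ligase gene, and Gatb, 6 peaks lay 15.5 to 64.6 kb apart. Beside Tcf4, a neuronal transcription factor gene, 5 of 6 peaks lay 213 to 397 kb from it, and the other 102 kb from Mc2r. Between Arpp21, a gene of neuronal cyclic AMP signalling, and Pdcd6ip, 6 peaks lay 32.4 to 135 kb apart.

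**Figure D3:**
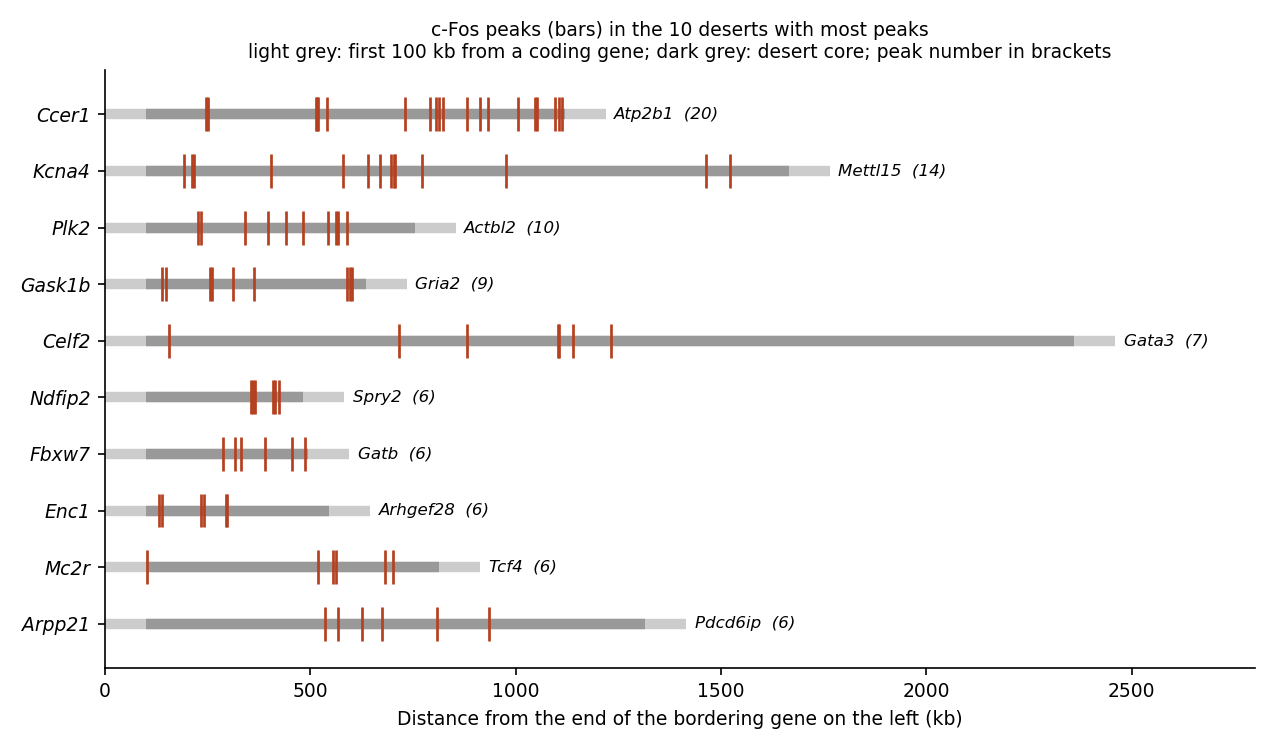
Midpoints of peaks (bars) in the 10 deserts with most peaks, as distance in kb from the end of the bordering coding gene named on the left, with the opposite gene and the peak number on the right. Peaks beside Spry2 and Enc1 lie in tight trios and pairs, whereas those between Kcna4 and Mettl15 are spread over 1328 kb.

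Across all deserts, 96 of 637 peaks (15.1%, interval 12.4 to 18.1) had another peak within 10 kb of their midpoint. The share among all other peaks was 11.97% (10.8 to 13.3), a difference of 3.10 percentage points (Newcombe interval 0.228 to 6.31). Peaks of a pair or trio share their close neighbours, yet the intervals treat peaks as independent, so the intervals are too narrow. The 3 fullest deserts carried most of this difference. Without them the shares were 12.5% in deserts and 11.97% elsewhere, a difference of 0.511 points (interval -2.23 to 3.64). The peaks elsewhere were kept whole, and leaving out the fullest deserts lowers the desert share largely by construction. Within deserts, 95 of the 96 formed 34 pairs and 9 trios, and the other 1 had its close neighbour outside the deserts. Their 52 gaps had a median of 5.66 kb, and 2 gaps fell short of 2 kb. At the other extreme, 377 desert peaks (59.2%, interval 55.3 to 63.0) had no other peak within 100 kb, against 1459 of the other peaks (54.9%, 53.0 to 56.8).

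Desert peaks were narrower than other peaks. Their median width was 1244 bp (order-statistic 95% interval 1215 to 1287), against 1364 bp (1343 to 1385) in all other peaks. Widths of 2 kb or more were found in 69 desert peaks (10.8%, interval 8.53 to 13.5) and in 15.2% of the others, a difference of -4.41 points (Newcombe interval -7.01 to -1.45). Set against peaks outside genes within 100 kb of an end, 13.7% of which were that wide, the difference was -2.91 points with an interval (-6.11 to 0.449) that includes 0. Peaks deep in deserts were the narrowest. Beyond 500 kb from a gene end, 2 of 116 were at least 2 kb wide (1.72%, interval 0.209 to 6.09) and the median was 1173 bp, whereas from 200 to 500 kb it was 36 of 265 (13.6%) and 1264 bp. Width is a length in base pairs set by the peak caller, not a measure of binding.

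**Figure D4:**
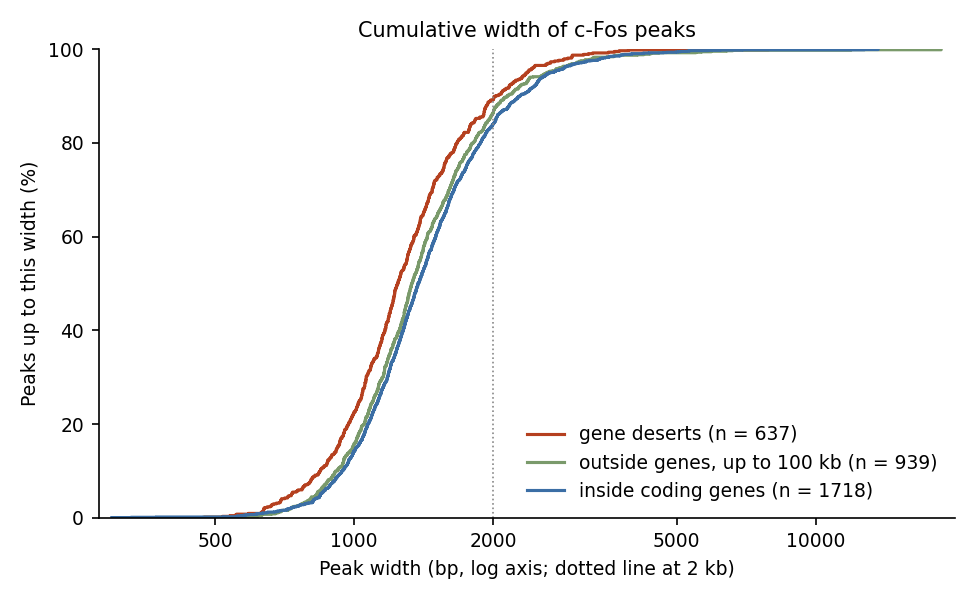
Cumulative share of peaks (%) up to a given width (bp, log axis) for desert peaks, peaks outside genes within 100 kb of an end, and peaks inside protein-coding genes. The desert curve lies to the left, with a median of 1244 bp against 1334 bp and 1376.5 bp in the other classes.

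The widest desert peak, of 7900 bp, lay on chromosome 18 (82160663 to 82168562), 228 kb from Galr1, a receptor gene for the neuropeptide galanin, with the transcription factor gene Sall3 opposite. All other desert peaks were under 4 kb. Next were peaks of 3930 bp, 165 kb from Plppr4, which encodes a protein of glutamatergic synapses, opposite Palmd, and of 3754 bp between Emp1 and Grin2b, which encodes an NMDA receptor subunit. A peak of 3668 bp lay between Adra1d, an adrenergic receptor gene, and Erv3. The Plk2 desert held 3 of the 10 widest, of 3557, 3220 and 2968 bp. The others were 3288 bp beside Pcdh20, a protocadherin gene (117 kb, with Tdrd3 opposite), 3144 bp between Pax1 and Foxa2, both developmental transcription factor genes, and 2969 bp between Fbxw7 and Gatb.

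The coding genes that border deserts were examined by lists of neuronal and other genes, to describe which loci the peaks lay beside. A border is a matter of position, and no peak was linked to a gene's activity. Of 21519 protein-coding genes, 2577 (12%) bordered a desert core, and of these 636 (24.7%) bordered one with a peak. Among 79 activity-induced genes, 29 bordered a desert, and 12 of these (41.4%, interval 23.5 to 61.1) bordered one with a peak. These were 3 of 7 bordering transcription factors and 9 of 22 bordering effectors. Among 98 ion channel and receptor genes the counts were 58 and 21 (36.2%, 24.0 to 49.9), and among 119 developmental transcription factor genes 87 and 30 (34.5%, 24.6 to 45.4). Synaptic adhesion and axon contact genes bordered deserts most often of these lists, 85 of 100, and 39 of the 85 (45.9%, 35.0 to 57.0) had a peak there. A gene with a desert on each side counts if either desert holds a peak, and many adhesion genes have a desert on each side. The shares were not adjusted for this. In every one of these 4 lists, and over all bordering genes, the median gene had 0 peaks in its deserts. Of 1463 smell and pheromone receptor genes, which act in the nose, 26 bordered a desert, and none of the 26 (interval up to 13.2%) had a listed peak there. Their 20 deserts came to 4.62 Mb, of which 2.91 Mb lay on the sparsely occupied X chromosome, and had a median core of 74.1 kb, in the size class of which 4.99% held a peak. The part of size and chromosome in this count of 0 was not tested. Of 30 housekeeping genes 1 bordered a desert, and of 34 genes of other organs 3 did. In each of these lists 1 gene, Ndufa4 and Ins1, had 1 peak there. The peak of Ins1 lay 1483 kb from it and is also counted for the activity-induced gene Sorcs1, 102 kb away at the opposite border.

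The lists differed in the size of their deserts, and the order by density was not the order by share. Deserts beside activity-induced genes held 37 peaks in 13.1 Mb, or 2.83 per Mb (interval 1.99 to 3.90), and 2.17 (1.43 to 3.16) without the Plk2 desert, which is one of the 3 fullest. Over all deserts the density was 0.894 per Mb, and 0.836 without those 3. No desert of the activity-induced lists lay on the sparsely occupied X chromosome, and over the autosomes alone the density was 0.965. The activity-induced deserts had a median core of 298 kb. Cores over 2000 kb, the sparsest per Mb, made up 182 Mb of all desert sequence. The part of core length in these densities was not tested. Deserts beside channel and receptor genes held 1.57 per Mb (1.19 to 2.03) and 1.23 (0.894 to 1.66) without the Kcna4 desert. Deserts beside developmental transcription factor genes held 0.977 per Mb (0.749 to 1.25). Deserts of adhesion genes had a median core of 999 kb, against 218 kb for all deserts, and held 0.522 peaks per Mb (0.418 to 0.644). A desert can border genes of more than 1 list, and the lists were drawn up with earlier results of these data known.

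**Figure D5:**
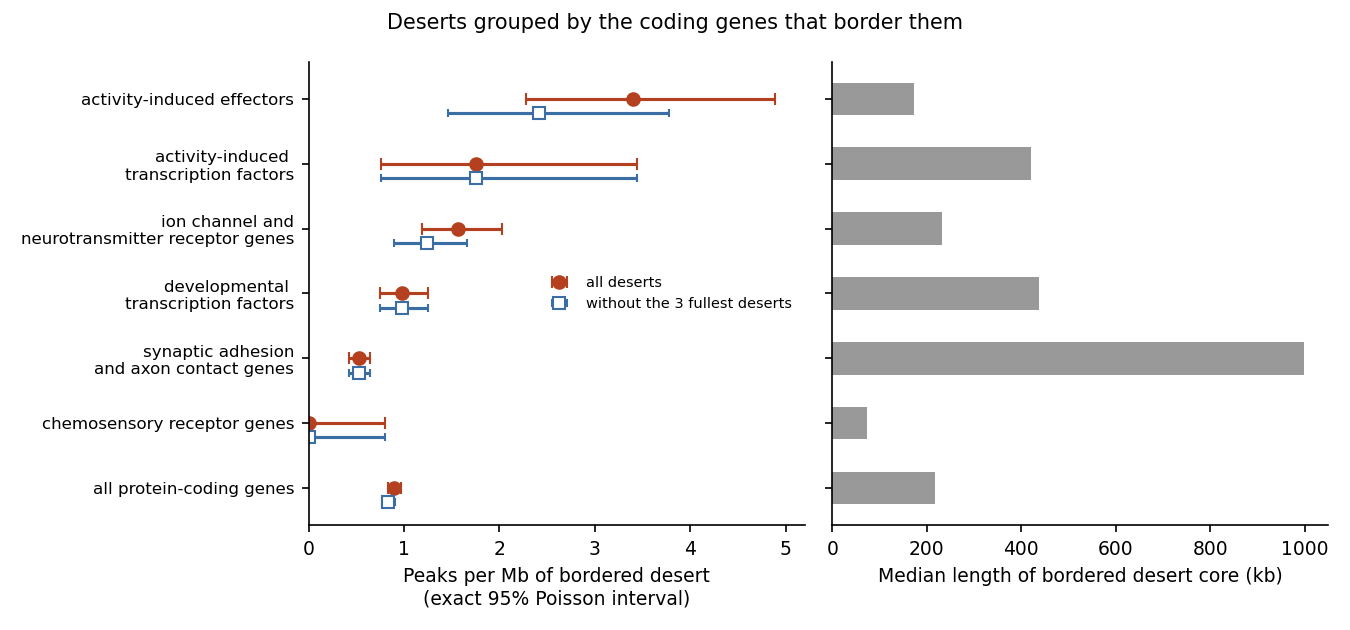
Peaks per Mb of the deserts bordered by each gene list (left, exact 95% Poisson intervals, open squares without the 3 fullest deserts) and the median length of those desert cores in kb (right). Deserts of activity-induced effectors have 3.41 peaks per Mb, those of adhesion genes 0.522 with the longest cores, and those of smell and pheromone receptor genes 0.

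A peak counted for a gene can lie nearer to the gene at the opposite border. Of 8 peaks counted for activity-induced transcription factors 1 lay nearer to the listed gene, and of 29 counted for effectors 17 did. Among activity-induced genes, transcription factors with desert peaks were Klf6 (6 peaks on its 2 sides, the nearest at 360 kb), Jun, the partner of c-Fos in AP-1 (1 peak at 315 kb), and Klf4 (1 peak at 992 kb). Of these peaks, 5 of the 6 for Klf6 and those for Jun and Klf4 were nearer to the opposite gene. Among the effectors, Plk2 had 10, of which 6 were nearer to Actbl2, and Spry2 had 6, all nearer to Spry2. Scg2, which encodes a neuropeptide precursor, had 3 desert peaks at 122, 143 and 222 kb, and Dusp6, a phosphatase gene that dampens MAP kinase signalling, had 3, the nearest at 152 kb. Inhba, which encodes the activin subunit induced by firing, had 3 peaks in a trio of 12.1 kb, 611 kb from the gene and nearer to Sugct, 203 kb away. Sorcs1, Dusp4, Npy and Gadd45g had 1 each, at 102, 185, 185 and 458 kb, those of Npy and Gadd45g being nearer to the opposite gene. Egr2, Nr4a2, Nr4a3, Bdnf and Penk bordered deserts with no peak. Sgk1, an activity-regulated kinase gene outside the lists and named after its values were seen, had 5 peaks in a desert of 286 kb shared with Aldh8a1, 4 of them nearer to Aldh8a1.

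Of 58 peaks summed over channel and receptor genes, 31 lay nearer to the listed gene than to the opposite one. Such genes beside peak-bearing deserts were led by Kcna4 (14) and Gria2 (9). Grm7, a metabotropic glutamate receptor gene, Grin2b, and Kcnn2, a calcium-activated potassium channel gene, had 4 each. The Grin2b desert was the most densely occupied of those with at least 4 peaks, with 4 in a core of 130 kb. Its peaks lay 186, 138, 135 and 122 kb from Grin2b, 3 of them inside the lncRNA gene Gm25136. Gria1, another AMPA receptor subunit gene, had 3, the nearest at 249 kb. Kcnj2 had 2, the nearer at 120 kb.

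Developmental transcription factor genes beside such deserts included Gata3 (7 peaks), Nr2f2 (5), Zeb2 and Pou3f1 (4 each) and Sox2 and Sox9 (3 each). Pou3f3, Sox11, Zbtb20, Dlx6 and Sim1 had 2 each, the nearest 104 to 231 kb away. Nearer to the opposite gene were 2 of 2 peaks for Dlx6, 2 of 3 for Sox2 and for Sox9, and 1 each for Sox11, Sim1 and Pou3f1. All peaks for Zeb2, Pou3f3 and Zbtb20 were nearer to the listed gene. The peaks counted for Gata3 and Nr2f2 lay no nearer than 1228 and 1118 kb, and closer to the genes at the opposite border in 6 of 7 and 5 of 5 cases. Over this list, 25 of 62 peaks lay nearer to the listed gene, and over the adhesion genes 48 of 99 did, peaks between 2 members counting for both. Among adhesion genes, Pcdh17 had 9 peaks, 7 of them nearer to the opposite genes, Flrt2 7, Slitrk5, Tenm4 and Cdh10 5 each, and Tenm2, Slitrk6 and Cdh8 4 each, with all 4 of Cdh8 nearer to the opposite gene. Slitrk6 and Slitrk5, which encode synapse-organising proteins, face each other across 1 desert whose 4 peaks are counted for both.

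Whether transcript starts rather than ends faced the occupied deserts was described with the strand of bordering genes, known for 2341 of 3050 gene ends. Starts made up 55.1% of gene ends beside deserts with a peak (287 of 521) and 52.3% beside deserts without (952 of 1820), a difference of 2.78 points with an interval (-2.09 to 7.58) that includes 0. In deserts with a start at one border and an end at the other, 113 of 193 peaks (58.5%, interval 51.3 to 65.6) lay nearer to the start. Without the 3 fullest deserts it was 107 of 183 (58.5%, 51.0 to 65.7). The 193 peaks lay in 110 deserts, and peaks of the same desert share its borders. Both intervals treat the peaks as independent and are too narrow, so no preference for starts is drawn from them. Deserts with starts at both borders held 1.02 peaks per Mb (0.852 to 1.22), those with one of each 0.777 (0.671 to 0.894) and those with ends at both 0.791 (0.631 to 0.979).

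Genes of other types, which the rule ignored, held part of the desert peaks. Inside such genes lay 105 of 637 (16.5%, interval 13.7 to 19.6), and these genes covered 12.1% of desert sequence. For lncRNA genes the values were 101 peaks (15.9%, 13.1 to 18.9) and 10.2% of the sequence. Within 1 kb of an end of any such gene lay 20 peaks (3.14%, 1.93 to 4.81), where such zones made up 2.51% of the sequence. The lncRNA gene Gm34664 on chromosome 7 (68842138 to 68916024), in the desert between Arrdc4 and Nr2f2, held 4. Gm25136 beside Grin2b, A330093E20Rik beside Kcnn2 and 2810404M03Rik on chromosome 8 held 3 each. The end of A330093E20Rik lay 57 bp from the middle of a peak. Besides the genes already named, Gm31089 and 4930579D09Rik had an end within 104 bp of the middle of a peak, the second of them in the desert before Sox5, and Gm41230, between Klf5 and Klf12, one at 194 bp.

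Chromosomes differed in desert density. Chromosomes 10 and 2 had 1.65 (1.25 to 2.15) and 1.59 (1.22 to 2.04) desert peaks per Mb, and chromosomes 4 and 5 had 0.511 (0.324 to 0.767) and 0.538 (0.329 to 0.831). Chromosomes 10 and 2 hold the Atp2b1 and Kcna4 deserts with 20 of 56 and 14 of 63 of their desert peaks. The X chromosome had 3 peaks in 55.5 Mb of desert, or 0.0540 per Mb (0.0111 to 0.158), against 0.965 (0.891 to 1.04) on the autosomes. Its other peaks were sparse too, at 0.161 per Mb against 1.51. The 3 peaks lay beside Gria3, an AMPA receptor subunit gene (259 kb), beside Mamld1 (166 kb, with Gm14725 opposite), and beside Rps6ka3, a kinase gene (580 kb).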

How the data were processed

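The deposited file is a list of start and end positions in 3 columns, made by the authors and treated as 1 list for the c-Fos group after kainic acid. It holds no counts, signal or score. SEACR 1.1, bedtools 2.27.1, Bowtie2 2.2.9 and Trimmomatic 0.36, with the builds mm10 and sacCer3, are named per the submitters' processing notes. What each did, its settings and how replicates were combined were not given in the sources used here. Peaks below the submitters' threshold count nowhere. Positions are printed 1-based.

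Genes came from a RefSeq table of GRCm38.p6, keeping starts at or above 3000000 (21519 protein-coding genes). A desert core is a stretch outside these genes and over 100 kb from their ends; chromosome spans ran from the first to the last gene or peak. Strand came from the RefSeq promoter table. Intervals are 95%: exact binomial (Clopper-Pearson) for shares, exact Poisson for densities, Newcombe for differences. They cover counting error over peaks and treat neighbouring peaks as independent. No test between samples was possible, and no random placement was made. Genes were named by a fixed rule: borders of the 10 fullest deserts, the 10 deepest and the 10 widest peaks, list members with most peaks, and genes of other types with 3 or more peaks or an end within 1 kb (up to 10). Sgk1, the microRNAs and the X chromosome peaks were added after their values were seen. Borders of empty deserts and list members without a peak were also named outside the rule. Some genes that the rule names are not reported here. The members and lists were chosen with earlier results of these data known. Of the listed genes, all were found in the gene table. Alternatives changed the distance, the gene set, the peaks, the chromosomes and the fullest deserts. Membership, desert length and neighbour distances were tested on simulated data. Python 3.11.15, pandas 2.3.3 and scipy 1.17.1 were used.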

Additional observations from a re-analysis of the deposited data

How the results depend on the processing

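No paired analysis was possible because replicates have no values of their own in the file, and none could be left out. The planned motif search in whole peaks was not run, since no genome sequence was used here. Of 70 alternatives over 11 results, 55 stayed within the interval or within 1.5 times the count, and 15 moved. None turned its direction, but only the differences in close neighbours and in width have a direction to turn. The difference in close neighbours counts as unmoved, although it went from 3.10 to 0.511 points without the 3 fullest deserts (interval -2.23 to 3.64). With a distance of 200 kb, 381 peaks in 202 cores remained in the deserts, at 0.772 per Mb, and 11.8% had another within 10 kb. Peaks at least as wide as the list's median numbered 261 in 166 cores, at 0.366 per Mb and with a median of 1660 bp, by construction. The share of bordering genes with a peak, 24.7% over all genes, was 12.5% with those wide peaks, 20.6% at 50 kb, 27.6% at 200 kb and 26.8% without the X chromosome. For activity-induced genes it was 24.1% with wide peaks, against 41.4%. With genes of every type setting the deserts, 132 peaks were left. The share with a close neighbour was 7.06% at 5 kb and 21.8% at 25 kb. Fewer peaks or wider windows enter these by construction. The comparisons of close neighbours and of width without the 3 fullest deserts, or with other peaks over 1 kb from a gene end, were chosen after seeing the data. Depth is unknown, so absent peaks cannot be told from weak ones.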

Other observations

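Desert peaks also lay in a locus that the rule counted as desert because its segments are not classed as protein-coding genes. On chromosome 6, peaks of 924 and 772 bp lay 20.7 kb apart within the immunoglobulin kappa locus, which neurons do not rearrange. Their middles were 207 bp from an end of the variable segment Igkv12-41 and 27 bp from one of the segment pseudogene Igkv12-40. These were the only 2 desert peaks inside an antigen receptor locus. The desert peak farthest from any other on the autosomes was 4509 kb from its neighbour.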
